A study of Mus musculus with 115 samples.

Results

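The semaphorins, plexins, neuropilins and netrins, with the receptors of the netrins, were taken from the table of read counts per gene by symbol: each gene named Sema3 to Sema7 with a letter, Plxna to Plxnd with a number, Plxdc1, Plxdc2, Nrp1, Nrp2, a netrin, a netrin-G, an Unc5 receptor, Dcc or Neo1. In all, 44 of 22870 genes met this rule, and no measured value entered it. The cells were dentate granule cells from Rbp4-Cre mice, which carry a Cre recombinase transgene. A retrograde adeno-associated virus coding for EGFP (retroAAV-EGFP) went into the right ventral hippocampus, and kainic acid (KA), which activates kainate-type glutamate receptors and causes seizures, or saline went into the left hippocampus at mirrored coordinates. The left injection also carried a virus for Cre-dependent mCherry (AAV.cDIO-mCherry), so the saline mice received the same viruses. Cells were sampled on the left 2 weeks later without regard to mCherry. They were EGFP+, with an axon that took up the virus on the other side, or EGFP-, which does not show that such an axon was lacking.

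Cytosol of single cells was drawn into a patch pipette and sequenced from Nextera XT libraries, so each library is 1 cell. The cells used were 27 KA EGFP+, 36 KA EGFP-, 5 saline EGFP+ and 27 saline EGFP- cells. The study states 9, 3, 3 and 3 mice for these groups, but no label names the mouse of a cell. It states 57 saline EGFP- cells as passed, of which 27 were used here, so how many of the mice these 27 cells came from is not known. Each group was therefore treated as 1 sample of unknown mice, no test between groups was made, and values are described with the spread over cells. The labels give no age or strain beyond Rbp4-Cre. Titles run in a first series (1 to 48, KA cells only) and a second series of higher numbers (every saline cell, 15 KA EGFP- and 3 KA EGFP+ cells). Only inside the second series do both treatments occur, and there KA and saline titles form separate runs, so treatment and run cannot be told apart.

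Semaphorins are guidance proteins that steer axons and shape synapses. The secreted class 3 semaphorins bind neuropilins, which signal through class A plexins, while most membrane-bound semaphorins bind plexins directly. Netrins attract axons through Dcc and neogenin and repel them through Unc5 receptors. In the hippocampus of the mouse, plexin-A2, plexin-A3, plexin-A4 and neuropilin-2 are known for placing and pruning the mossy fibres, the axons of granule cells.

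The 95 cells held 1277978 to 56183007 counts (median 5221619) and 1469 to 9945 genes with a count. The median number of genes per cell was 6231 in KA EGFP+, 5698.5 in KA EGFP-, 4325 in saline EGFP+ and 4448 in saline EGFP- cells. The KA EGFP- cells of the first series had a median of 6974 genes, and those of the second 3707. Prox1, the transcription factor that defines granule cells, was counted in 25 of 27, 26 of 36, 2 of 5 and 23 of 27 cells of the groups in the same order, so 3 of the 5 saline EGFP+ cells lacked it. C1ql2, a second granule cell marker, was counted in 12 of 27, 10 of 36, 5 of 5 and 26 of 27 cells. Transcripts of 16 microglia markers took at least 0.1% of counts in 10 of 27, 5 of 36, 5 of 5 and 12 of 27 cells, with medians of 0.0183%, 0.0133%, 2.76% and 0.0268%, and each of the 16 markers had a count in every group. The labels on quality control do not match the table of kept cells: 13 kept cells are labelled as failed. A like shift of the labels for treatment or EGFP class was not tested.

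Counts in a single granule cell covered a varying subset of these genes. The number of members with a count was read in cells thinned to 1000000 counts. It had a median of 13 (range 1 to 21) in KA EGFP+ and 10.5 (0 to 22) in KA EGFP- cells. In saline EGFP+ cells it was 10 (7 to 15), and in saline EGFP- cells 8 (1 to 17). Over the 95 cells the median was 10 of 44 members. Beside it, a cell held a median of 5370 of all 22870 genes, read before thinning. Without thinning, 7 members were counted in more than 50% of the 95 cells: Plxna4, Nrp1, Unc5a, Sema5a, Plxna2, Ntng1 and Unc5c. After thinning, Unc5c was counted in 45.3%. At the other end, 11 members were counted in fewer than 10 cells. These were Sema3b, Sema3c, Sema3d, Sema3f, Sema3g, Sema4c, Sema6c, Plxnb3, Ntn1, Ntn4 and Unc5b, and Sema3g had 0 counts in 95 cells. The highest value among them was 315.5 CPM, for Sema6c in 1 KA EGFP+ cell. The shares of all genes counted in more than 50% or in fewer than 10 cells were not computed. Counts scaled to 1000000 per cell (CPM) and divided by exon length, the scale used to set genes against each other, averaged 31.9 CPM per kb for Unc5a, 22.5 for Nrp1 and 20.8 for Plxna4 over the 95 cells. They were followed by Ntng1 (9.86 CPM per kb), Sema4f (8.66), Ntn5 (8.55), Plxdc2 (8.11), Neo1 (5.53) and Plxna2 (5.44). The secreted attractant Ntn1, the classic Dcc ligand, averaged 0.0294 CPM per kb and was counted in 5 cells.

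**Figure D1:**
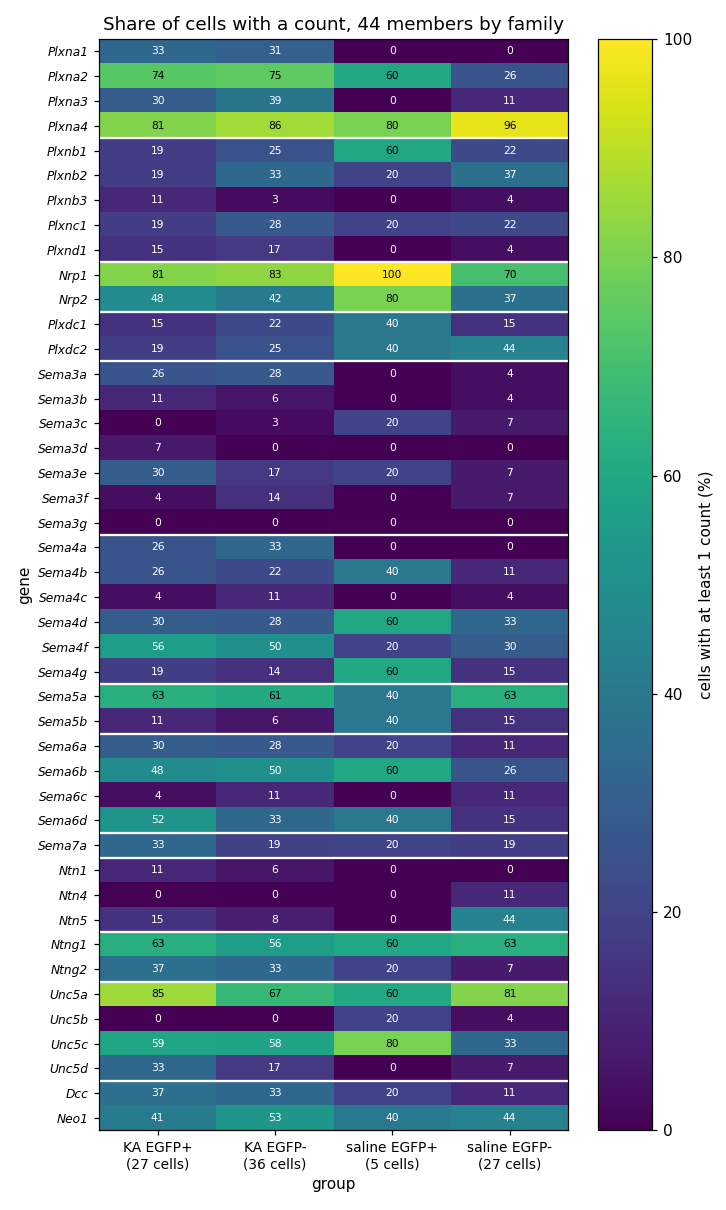
Share of cells (%) with at least 1 count, without thinning, for each of the 44 genes (down the page). The 4 groups of treatment and EGFP class run across, and shares are shown as colour and printed percentages. Plxna4, Nrp1 and Unc5a were counted in most cells of each group, and 11 of the genes were counted in fewer than 10 of 95 cells.

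Class A plexins were counted in nearly every cell and class 3 semaphorins in fewer, with a plexin in 25 of 27 KA EGFP+, 33 of 36 KA EGFP-, 4 of 5 saline EGFP+ and 26 of 27 saline EGFP- cells and a semaphorin in 15, 19, 2 and 7. The 4 class A plexins summed to a median of 331 CPM per cell in KA EGFP+, 410 in KA EGFP-, 70.6 in saline EGFP+ and 237.8 in saline EGFP- cells. The 7 class 3 semaphorins summed to medians of 1.93, 0.0485, 0 and 0 CPM in the same groups. Receptor pairs were read from cells thinned to 1000000 counts each, which equals the total counts but not the number of genes per cell. A neuropilin was counted together with a class A plexin in 20 of 27 KA EGFP+, 30 of 36 KA EGFP-, 4 of 5 saline EGFP+ and 21 of 27 saline EGFP- cells, the pair through which most class 3 semaphorins act. Nrp1 with Plxna2 occurred in 17 of 27, 21 of 36, 2 of 5 and 6 of 27 cells. Nrp1 with Plxna4 occurred in 19 of 27, 22 of 36, 4 of 5 and 18 of 27 cells. An Unc5 receptor with Dcc or Neo1, a combination of netrin receptors, occurred in 12 of 27, 19 of 36, 2 of 5 and 9 of 27 cells.

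The main comparison asks how EGFP- granule cells differ 2 weeks after KA and after saline. After KA, the plexin-A2 gene Plxna2, the netrin receptor gene Unc5c and the plexin-A3 gene Plxna3 were higher, and the netrin gene Ntn5, the neuropilin-2 gene Nrp2 and Plxdc2 were lower, both with all titles and inside the second title series. Differences are of mean log2(CPM+1), a scale on which the number of cells at 0 weighs heavily. It can give larger or smaller values than pooled counts, with 3.24 against 1.51 for Plxna2 and 1.48 against 2.95 for Plxna3. A member was called measured where the average of both group means was at least 1. Of 19 measured members, 4 were at least 1 higher (Plxna2, Unc5c, Plxna3, Dcc) and 3 at least 1 lower (Ntn5, Plxdc2, Nrp2), where 29.8% of 8816 measured genes were at least 1 higher and 10.7% at least 1 lower. The median difference was 0.24 over the measured members and 0.44 over all measured genes. Inside the second title series, with 15 KA and 27 saline cells, 3 members were at least 1 higher and 7 at least 1 lower, against 9.56% and 35% of genes, and the medians were -0.21 and -0.55. With the median of all genes subtracted, 3 members were at least 1 higher and 7 lower with all titles. Of the 7 members called with all titles, Dcc did not keep its sign inside the second title series.

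Lists of markers of other neurons differed between the same groups, and not all in the same direction. The interneuron list took a median of 0.0761% of counts (range 0 to 0.431%) in KA EGFP- cells, with 4 of 8 markers counted and Slc32a1, Sst, Vip and Dlx1 at 0, and 0.0228% (0 to 0.280%) in saline EGFP- cells, with 8 of 8 counted. Gad2, a GABA-synthesising enzyme of that list, was counted in 14 of 36 KA cells, 8 of them among the 15 of the second series, and in 4 of 27 saline cells. The list of CA3 pyramidal cells took 0.0280% (0 to 0.137%) in KA and 0.000424% (0 to 0.0386%) in saline EGFP- cells, with 4 of 5 markers counted in each. Inside the second series the KA median of that list was 0.00135%. The mossy cell list went the other way. It took 0.0149% (0 to 0.0394%, 6 of 6 markers) in KA and 0.0272% (3.2e-05 to 0.181%, 5 of 6) in saline EGFP- cells. The list of CA1 pyramidal cells had a median of 0% in both groups. The granule cell list took 0.170% (0.000577 to 0.852%, 11 of 12 markers) in KA and 0.495% (0.0351 to 1.03%, 12 of 12) in saline EGFP- cells. Without the cells with a Gad2 count, 4 members were at least 1 higher and 2 lower. Plxna2, Unc5c, Plxna3, Ntn5 and Plxdc2 then differed by 3.96, 2.42, 1.84, -2.17 and -1.17, but Nrp2 by -0.19. The part of the CA3, CA1, mossy cell and other interneuron markers in these values was not tested.

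**Figure D2:**
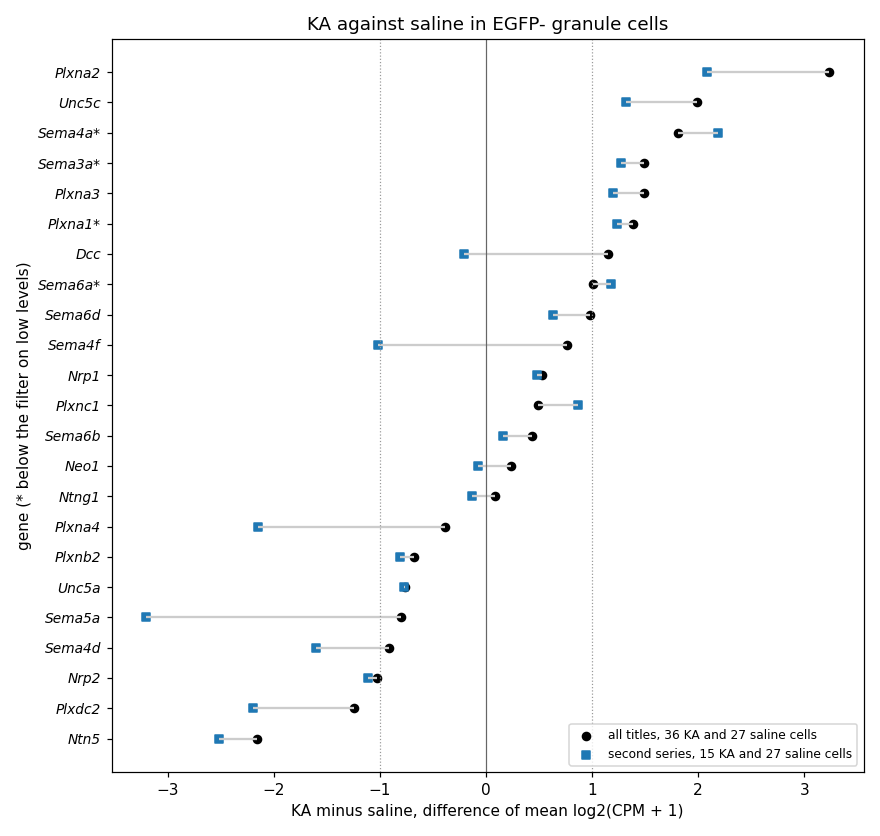
Difference of mean log2(CPM+1), KA minus saline EGFP- cells, for the measured members and 4 members below the level filter (asterisk), with all titles and inside the second title series. Plxna2 lies at 3.24 and 2.09, Ntn5 at -2.16 and -2.52, and Plxna4 and Sema5a lie near -0.38 and -0.80 with all titles but at -2.15 and -3.21 inside the second series.

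Plxna2 (chromosome 1, 194618218 to 194816869, plus strand, GRCm38) encodes plexin-A2, the receptor of Sema6a in mossy fibre layering. Every member had a lowest value of 0 CPM in the groups of 27 and 36 cells, so medians and highest values are given for these groups. Plxna2 had a median of 30.5 and a highest value of 1018.5 CPM in KA EGFP- cells, with a count in 27 of 36 cells, against 0 and 433 CPM in saline EGFP- cells, with a count in 7 of 27. Most KA cells thus held Plxna2 and most saline cells did not, although the ranges overlap. The mean log2 level was 4.55 ± 3.44 after KA and 1.31 ± 2.73 after saline (SD, n = 36 and 27 cells), a difference of 3.24. After thinning, 72.2% of KA EGFP- cells had a count (exact Clopper-Pearson 95% interval 54.8 to 85.8%) and 25.9% of saline EGFP- cells (11.1 to 46.3%). Pooled over cells, Plxna2 took 99.7 CPM after KA (exact Poisson 95% interval 98.5 to 100.9) and 34.3 after saline (33.2 to 35.4). The Poisson intervals cover counting error only, and those of shares take each cell as an independent draw. Inside the second series the gene was counted in 8 of 15 KA cells, in 5 of 8, 1 of 2 and 2 of 5 cells of the KA runs, against 2 of 6, 1 of 6 and 4 of 15 cells of the saline runs. Without the cells rich in microglia transcripts the difference was 3.60.

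Unc5c (chromosome 3, 141465216 to 141834924, plus strand) encodes a receptor through which netrin-1 repels axons. It had a median of 2.98 and a highest value of 755 CPM in KA EGFP- cells (21 of 36 cells with a count), against 0 and 265.2 CPM in saline EGFP- cells (9 of 27). The mean log2 level was 3.21 ± 3.42 after KA and 1.22 ± 2.32 after saline (SD), a difference of 1.98, with 1.32 inside the second title series and 1.65 without the cells rich in microglia transcripts. Unc5c was thus counted in more KA cells than saline cells with all titles, with overlapping ranges. Inside the second series the counts lay closer, with 6 of 15 KA cells (2 of 8, 1 of 2 and 3 of 5 in the runs) against 9 of 27 saline cells (3 of 6, 1 of 6 and 5 of 15). After thinning it was counted in 55.6% (38.1 to 72.1%) of KA and 22.2% (8.62 to 42.3%) of saline cells. Its pooled level of 113 CPM after KA, against 10.5 after saline, rests on 1 cell of the first series that holds 40.1% of the Unc5c counts of the 95 cells. Without that cell the pooled level after KA was 56.5 CPM and the difference of log2 means was 1.80. Without the deepest cell, another cell of the first series, that difference was 2.03. Plxna3 (chromosome X, 74329066 to 74344689, plus strand) encodes plexin-A3, which works with neuropilin-2 in Sema3f responses. It was counted in 14 of 36 KA EGFP- cells, with a median of 0 and a highest value of 1568 CPM, and in 3 of 27 saline EGFP- cells, with a median of 0 and a highest value of 146 CPM. Plxna3 was absent from most cells of both groups, and its difference was 1.48 (1.19 inside the second series, where 4 of 15 KA cells held it).

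Ntn5 (chromosome 7, 45684022 to 45694556, plus strand) encodes a secreted protein of the netrin family. It was counted in 3 of 36 KA EGFP- cells, with a highest value of 46.7 CPM, against 12 of 27 saline EGFP- cells, with a highest value of 499 CPM, and the median was 0 CPM in both groups. The mean log2 level was 0.36 ± 1.30 after KA and 2.52 ± 3.20 after saline (SD). Ntn5 was therefore rare in KA cells: inside the second series it was counted in 0 of 15, and each of the 3 KA runs was at 0, whereas the saline runs held it in 4 of 6, 3 of 6 and 5 of 15 cells. After thinning, Ntn5 was counted in 8.33% of the KA group (1.75 to 22.5%) and in 44.4% of the saline group (25.5 to 64.7%). Pooled levels were 2.04 CPM after KA and 36.0 after saline. Without the cells rich in microglia transcripts the difference was -2.53, against -2.16 with them. Of its exon bases 519 (23.42%) lie over exons of Sec1 on the opposite strand. The library kit keeps no strand, so reads of the shared stretch cannot be told apart by strand. Sec1, a fucosyltransferase gene, was counted in 4 of 36 KA and 11 of 27 saline EGFP- cells. Of the 12 saline cells with Ntn5, 11 also held Sec1. The part of reads of the shared stretch in the Ntn5 values was not tested.

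Plxdc2 and Nrp2 were lower by smaller amounts. Plxdc2 (chromosome 2, 16356304 to 16755839, plus strand) encodes a transmembrane protein with a plexin-like domain. It was counted in 9 of 36 KA EGFP- cells (highest 236 CPM) and 12 of 27 saline EGFP- cells (highest 749 CPM), with medians of 0 CPM. Its mean log2 level was 1.48 ± 2.88 after KA and 2.72 ± 3.76 after saline (SD), a difference of -1.24. Of the KA cells with Plxdc2, 8 were among the 21 of the first title series and 1 among the 15 of the second, where the difference was -2.20. In saline EGFP- cells Plxdc2 averaged 161 CPM in the 12 cells rich in microglia transcripts and 53.7 CPM in the other 15, and without such cells in both groups the difference was -0.83. Nrp2 (chromosome 1, 62703285 to 62818695, plus strand) encodes neuropilin-2, the receptor that binds Sema3f. It was counted in 15 of 36 KA EGFP- cells (highest 170 CPM) and 10 of 27 saline EGFP- cells (highest 555 CPM). The difference was -1.02 (1.09 ± 2.02 against 2.11 ± 3.01, SD), with -1.12 inside the second series. Among cells with a count, without thinning, the median was 1.63 CPM after KA and 52.9 CPM after saline. The lowest values among these cells were 0.0178 and 2.44 CPM, so the KA median includes cells with very low values. After thinning, the share of KA EGFP- cells with Nrp2 fell from 41.67% to 30.56%, and the saline share did not change. How the difference divides between level and share of cells was not tested.

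**Figure D3:**
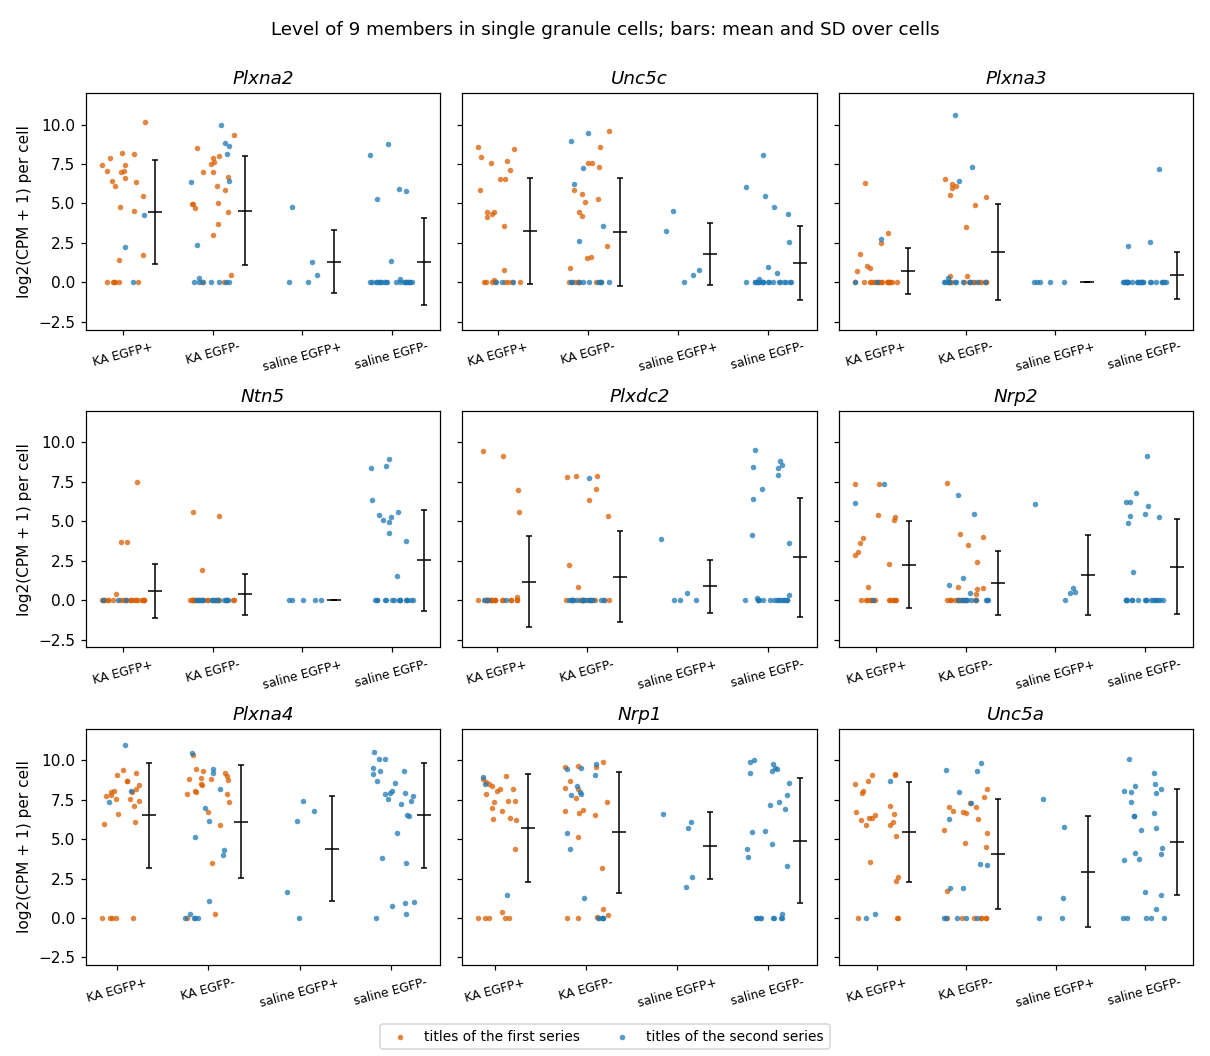
Level in each cell, log2(CPM+1), of Plxna2, Unc5c, Plxna3, Ntn5, Plxdc2, Nrp2, Plxna4, Nrp1 and Unc5a in the KA EGFP+, KA EGFP-, saline EGFP+ and saline EGFP- cells, coloured by title series, with the mean and SD over cells. Plxna2 is at 0 in 9 of 36 KA EGFP- cells and in 20 of 27 saline EGFP- cells, and Ntn5 is at 0 in 33 of 36 and 15 of 27.

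The most frequent receptors of the set differed by less than 1 with all titles. Plxna4, the gene of plexin-A4, had a median of 231.1 and a highest value of 1434 CPM in KA EGFP- cells (31 of 36 with a count), against 211.9 and 1475 CPM in saline EGFP- cells (26 of 27). Its difference was -0.38 with all titles. KA cells of the first series averaged 7.38 on the log2 scale and those of the second 4.35, so inside the second series the difference was -2.15. Nrp1, which encodes neuropilin-1, the receptor of Sema3a, had a median of 113 and a highest value of 959 CPM in KA EGFP- cells (30 of 36), against 43.4 and 1046.5 CPM in saline EGFP- cells (19 of 27). Its difference was 0.53, and -0.96 without the cells rich in microglia transcripts. Unc5a, a netrin receptor gene of the same family as Unc5c, had a median of 24.3 and a highest value of 912 CPM in KA EGFP- cells (24 of 36), against 47.5 and 1068 CPM in saline EGFP- cells (22 of 27), a difference of -0.76 (-0.77 inside the second series). The Unc5a exons share 34 bases with Hk3 on the opposite strand, and Hk3 was counted in 22 of the 24 KA and 20 of the 22 saline cells that held Unc5a. Unc5a and Unc5c were counted together, after thinning, in 15 of 36 KA and 6 of 27 saline EGFP- cells.

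Of the members given next, Neo1, Sema5a and Sema4f had a count in 50% or more of the cells of a group, and Dcc did not. Neo1, the gene of neogenin, a receptor of netrins and repulsive guidance molecules, was counted in 19 of 36 KA and 12 of 27 saline EGFP- cells, with medians of 1.56 and 0 CPM and highest values of 260.6 and 668 CPM, and differed by 0.24. Dcc, the netrin receptor of attraction, was counted in 12 of 36 KA and 3 of 27 saline EGFP- cells. Its difference of 1.15 came from the first title series, where 11 of 21 KA cells held it, against 1 of 15 in the second, where the difference was -0.21. Sema5a and Sema4f also differed between the KA cells of the title series. Sema5a, a membrane semaphorin that binds plexin-A2 in granule cells of the mouse, was counted in 17 of 21 KA EGFP- cells of the first series and 5 of 15 of the second, against 17 of 27 saline EGFP- cells, and differed by -0.80 and, inside the second series, by -3.21. Sema4f, a membrane semaphorin found at glutamatergic synapses, was counted in 15 of 21 and 3 of 15 KA cells, against 8 of 27 saline cells, and differed by 0.77 and -1.02.

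The remaining frequent ligands kept their sign or stayed near 0. Sema6d, a membrane semaphorin that binds plexin-A1, was counted in 12 of 36 KA and 4 of 27 saline EGFP- cells (highest 576 and 402 CPM) and differed by 0.98 (0.63 inside the second series). Sema6b, a class 6 semaphorin that binds plexin-A4, was counted in 18 of 36 and 7 of 27 cells (highest 326 and 200.7 CPM) and differed by 0.44 (0.16). Ntng1, which encodes the membrane-anchored netrin-G1, was counted in 20 of 36 and 17 of 27 cells, with medians of 11.3 and 2.77 CPM and highest values of 471 and 965 CPM. It differed by 0.09 (-0.13). The other measured members, Plxnc1, Plxnb2 and Sema4d, differed by 0.49, -0.67 and -0.92, and by 0.87, -0.81 and -1.60 inside the second series.

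Some members below the level filter, which averages both groups, were absent from most KA EGFP- cells and from most or all saline EGFP- cells. They are Sema4a, Plxna1, Sema3a and Sema6a, chosen here for their size after their values were seen. The share of all genes with such a pattern was not computed. KA EGFP- cells had a median of 5698.5 genes with all titles and 3707 in the second series, against 4448 in saline EGFP- cells. Sema4a, a membrane semaphorin, was counted in 12 of 36 KA EGFP- cells (highest 970 CPM) and 0 of 27 saline EGFP- cells, which allows a share of up to 12.8% there by the exact interval. Plxna1, the gene of plexin-A1, was counted in 11 of 36 KA cells (highest 587 CPM) and 0 of 27 saline cells, with the same limit. Neither gene was counted in any saline EGFP+ cell. Sema3a, the secreted ligand of neuropilin-1, was counted in 10 of 36 KA cells (highest 596 CPM) and 1 of 27 saline cells (24.6 CPM). Sema6a, the ligand of plexin-A2, was counted in 10 of 36 KA cells (highest 751 CPM) and 3 of 27 saline cells (highest 215.04 CPM). Inside the second series Sema4a, Plxna1 and Sema3a were counted in 4, 3 and 4 of 15 KA cells. Sema6a was counted there in 1 of 8, 0 of 2 and 2 of 5 cells of the KA runs. Any class 3 semaphorin was counted in 19 of 36 KA EGFP- cells and 7 of 27 saline EGFP- cells, and the highest summed level was 596 against 24.6 CPM. Inside the second series the KA count was 7 of 15. After thinning, with all titles, the counts were 15 of 36 and 6 of 27. The same share for other sets of genes was not computed. Together with a neuropilin in the same thinned cell, a class 3 semaphorin was counted in 13 of 36 KA and 5 of 27 saline EGFP- cells. The secreted netrins had the opposite order, with a count in 5 of 36 KA and 14 of 27 saline cells, mostly of Ntn5. The netrin-G gene Ntng2 was counted in 12 of 36 KA EGFP- cells (highest 50.8 CPM) and 2 of 27 saline EGFP- cells (highest 64.2 CPM), and each of the 12 KA cells was of the first title series. Sema3e, a secreted ligand of plexin-D1, was counted in 6 of 36 and 2 of 27 cells (highest 376 and 4.88 CPM) and Plxnd1 itself in 6 and 1 (highest 2.30 and 0.595 CPM). The rest, Sema4b, Sema4g, Sema5b, Sema7a, Plxnb1 and Unc5d, were counted in 2 to 9 of 36 KA and 2 to 6 of 27 saline EGFP- cells.

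Promoters are shown for the members that differed by at least 1 in the same direction with all titles and inside the second title series. Of these 6 members, 5 have an entry in the RefSeq promoter table (GRCm38.p6), which runs from 250 bases before to 50 bases after the start; Plxdc2 has none. Of the 44 members, 34 matched an entry by symbol. Letters are in lower case, and capitals mark matches to motifs of activity-regulated factors on either strand: AP-1 (TGANTCA), the cAMP response element (CRE, TGACGTCA), the core of that element (TGACG, which also lies inside the full one) and EGR (GCGNGGGCG). The regions are chr1:194619579-194619878 for Plxna2, chr3:141465314-141465613 for Unc5c, chrX:74328816-74329115 for Plxna3, chr7:45683772-45684071 for Ntn5 and chr1:62703067-62703366 for Nrp2, each on the plus strand. The RefSeq starts of Plxna2, Unc5c and Nrp2 lie inside the GENCODE bounds given above, downstream of the GENCODE start.
Plxna2: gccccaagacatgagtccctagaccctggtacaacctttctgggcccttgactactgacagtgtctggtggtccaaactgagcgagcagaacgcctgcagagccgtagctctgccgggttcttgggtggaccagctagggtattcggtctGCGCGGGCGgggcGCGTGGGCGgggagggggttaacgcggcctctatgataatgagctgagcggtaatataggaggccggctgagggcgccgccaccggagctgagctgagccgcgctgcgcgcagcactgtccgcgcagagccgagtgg
Unc5c: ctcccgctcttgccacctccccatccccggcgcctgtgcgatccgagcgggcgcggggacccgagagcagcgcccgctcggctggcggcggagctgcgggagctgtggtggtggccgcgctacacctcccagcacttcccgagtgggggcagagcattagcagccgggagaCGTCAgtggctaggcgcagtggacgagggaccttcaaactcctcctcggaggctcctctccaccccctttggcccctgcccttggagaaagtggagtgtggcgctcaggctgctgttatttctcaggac
Plxna3: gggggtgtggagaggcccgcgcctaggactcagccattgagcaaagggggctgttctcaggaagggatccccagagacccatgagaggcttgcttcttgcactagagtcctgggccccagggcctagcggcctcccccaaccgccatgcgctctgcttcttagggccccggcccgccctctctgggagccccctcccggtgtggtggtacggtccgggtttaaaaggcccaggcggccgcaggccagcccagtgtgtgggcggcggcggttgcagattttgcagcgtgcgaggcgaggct
Ntn5: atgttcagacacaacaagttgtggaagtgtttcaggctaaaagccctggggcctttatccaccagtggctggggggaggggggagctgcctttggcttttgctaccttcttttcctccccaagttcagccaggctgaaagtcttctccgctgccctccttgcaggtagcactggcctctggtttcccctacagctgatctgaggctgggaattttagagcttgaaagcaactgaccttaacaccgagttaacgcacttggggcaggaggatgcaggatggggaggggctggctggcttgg
Nrp2: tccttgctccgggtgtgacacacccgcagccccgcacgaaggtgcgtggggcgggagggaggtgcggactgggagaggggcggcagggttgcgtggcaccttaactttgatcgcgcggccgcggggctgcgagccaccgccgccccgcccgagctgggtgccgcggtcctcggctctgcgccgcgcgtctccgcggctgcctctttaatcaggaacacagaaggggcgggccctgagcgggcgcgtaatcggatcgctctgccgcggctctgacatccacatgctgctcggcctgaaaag

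The Plxna2 window holds 2 EGR matches and the Unc5c window 1 match to the core of the CRE, while no match to these letters lies in the windows of Plxna3, Ntn5 and Nrp2. The windows of Plxna2, Unc5c, Plxna3 and Nrp2 hold 64.7%, 68.3%, 67.7% and 70.7% G and C with 25, 24, 18 and 37 CpG pairs. The Ntn5 window stands apart from these with 55.3% and 3 CpG pairs. The 34 members with an entry have 45 windows, of which 7 (15.56%) held an EGR match, 4 (8.89%) a CRE core, 3 (6.67%) an AP-1 match and 0 a full CRE. Over 32851 windows of the same length the shares were 5.55%, 20.81%, 7.81% and 1.79%. The 45 windows of members had a median of 64.0% G and C, against 52.7% over all windows, and the shares were not matched on base composition. A match is a description of the letters and not a site.

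Genes of the same pathways were read from lists that hold no member. Of the 3 measured of 9 co-receptors of neuropilins and plexins, 0 were at least 1 higher after KA in EGFP- cells and 1 was lower: Chl1, an adhesion molecule that binds neuropilin-1, at -2.55 (-3.41 inside the second series). Of 10 measured plexin GTPases and exchange factors 0 were higher and 2 lower, Rap1b (-1.57; -1.36) and its exchange factor Rapgef2 (-1.34; -1.02). Of 11 measured semaphorin effectors 3 were higher and 0 lower, among them Mical3, of a family of actin-oxidising enzymes (1.87; 0.82), and Crmp1, a collapsin response mediator (1.83; 1.01). Of 15 measured netrin receptor ligands and effectors 3 were higher and 2 lower. Ptk2, the focal adhesion kinase that binds Dcc, stood at 2.42 (1.68) and Trim9, a ubiquitin ligase that binds Dcc, at 1.12 (0.24). Vasp, an actin regulator, stood at -1.81 (-1.81) and Flrt3, a membrane protein that binds Unc5 receptors, at -1.28 (-0.91). The 3 netrin-G ligands gave 0 and 0. List medians were -0.33, 0.18, 0.04, 0.46 and 0.58 in this order, beside 0.44 over all measured genes, of which 29.8% were at least 1 higher and 10.7% lower. Inside the second series 0 and 3 of the 3 co-receptors, 0 and 5 of the 10 GTPases and exchange factors, 1 and 7 of the 11 semaphorin effectors, 2 and 7 of the 15 netrin genes and 0 and 1 of the 3 netrin-G ligands were at least 1 higher and lower, against 9.56% and 35% of genes. The genes named above were chosen among those with the same sign in both title sets. The medians there were -1.60, -0.79, -1.50, -0.91 and -0.19, beside -0.55.

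The next comparison sets EGFP+ against EGFP- granule cells after KA. With all titles the median difference was -0.01 over 22 measured members and 0.29 over 9308 genes. Of these members 2 members were at least 1 higher in EGFP+ cells (Unc5a, Nrp2) and 2 at least 1 lower (Plxna3, Plxnb2), where 17% of genes were higher and 4.17% lower. With the median of all genes subtracted, 1 member was higher and 4 lower. In the first title series 1 was higher and 5 lower, against 6.79% and 20.7% of genes, and the medians were -0.43 and -0.31. More members lay past 1 in the small sets: 4 higher and 8 lower in titles 20 to 48 (5 EGFP+ cells), against 16.8% and 30% of genes, and 6 higher and 11 lower in the second series (3 EGFP+ cells), against 34.9% and 23.4% of genes. Plxna2 and Unc5c, the members with the highest differences after KA above, differed by -0.09 and 0.06 between the EGFP classes. In KA EGFP+ cells Plxna2 had a median of 43.7 and a highest value of 1164 CPM (20 of 27 with a count), beside 30.5 and 1018.5 CPM in KA EGFP- cells.

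Nrp2 was higher in KA EGFP+ cells in each title set. It was counted in 13 of 27 EGFP+ cells (highest 166.5 CPM) and 15 of 36 EGFP- cells (highest 170 CPM), with mean log2 levels of 2.25 ± 2.77 and 1.09 ± 2.02 (SD), a difference of 1.16. The groups overlap over their whole range. The difference was 0.81 in the first series, 3.53 in the second series and 1.56 in titles 20 to 48, the stretch of the first series that holds both classes. The 5 EGFP+ cells of titles 20 to 48 had 0, 0.759, 41.8, 0 and 161 CPM, and the 3 of the second series 166.5, 0 and 71.8 CPM. The last values are thus carried by 2 cells each. Nrp2, Plxna3 and Plxnb2 were picked out in this comparison by a rule that asks for 1 sign in every title set. Their agreement over the sets is therefore partly set by that choice, and the sets overlap. Unc5a had a median of 81.4 and a highest value of 553 CPM in KA EGFP+ cells (23 of 27 with a count), against 24.3 and 912 CPM in KA EGFP- cells (24 of 36), a difference of 1.37. The 5 EGFP+ cells of titles 20 to 48 had 531, 103, 362, 36.0 and 533 CPM, against a median of 40.6 and a highest value of 291 CPM in the 21 EGFP- cells of these titles. Each of these 5 cells held Unc5a, and 3 lay above the highest EGFP- cell. The 3 EGFP+ cells of the second series had 409, 0.184 and 0 CPM, and there the difference turned to -1.08.

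Plxna3 and Plxnb2 were lower in KA EGFP+ cells in each title set. Plxna3 was counted in 8 of 27 EGFP+ cells, with a highest value of 77.4 CPM, against 14 of 36 EGFP- cells, with a highest value of 1568 CPM. Its difference was -1.23, with -1.46, -1.64 and -0.73 in the first series, titles 20 to 48 and the second series. Plxnb2, the gene of plexin-B2, a receptor of class 4 semaphorins, was counted in 5 of 27 EGFP+ cells (highest 238.04 CPM) and 12 of 36 EGFP- cells (highest 176 CPM). Its difference was -1.14, with -1.21, -0.25 and -1.20 in the same sets. Plxna4 differed by 0.40, but by -1.15 in the first series and 4.44 in the second, where the 3 EGFP+ cells had 265.6, 162 and 2003 CPM and the EGFP- cells a median of 19.05 CPM. Neo1 differed by -0.82, with -0.81, -2.81 and -2.40. Cells rich in microglia transcripts made up 10 of 27 EGFP+ and 5 of 36 EGFP- cells, and without them Unc5a, Nrp2, Plxna3 and Plxnb2 differed by 1.61, 1.31, -1.27 and -1.48. Gad2 was counted in 8 of 27 EGFP+ and 14 of 36 EGFP- cells. Without those cells the same members differed by 0.81, 0.54, -1.69 and -1.90, and 0 members were at least 1 higher and 6 lower.

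**Figure D4:**
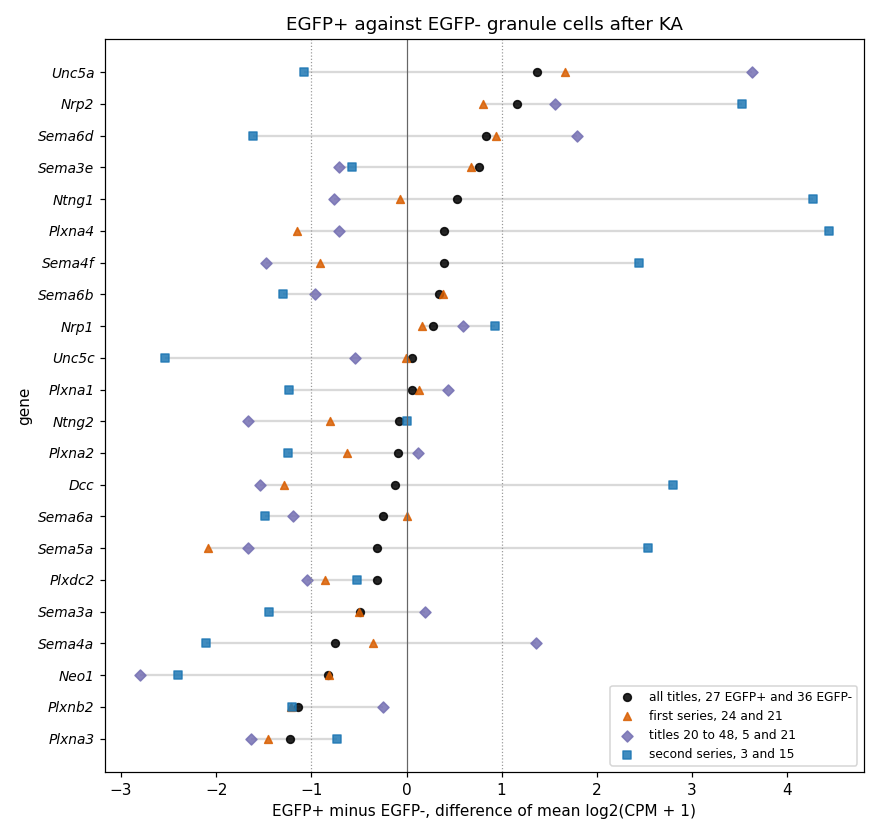
Difference of mean log2(CPM+1), EGFP+ minus EGFP- cells after KA, for the measured members, with all titles (27 and 36 cells), in the first series (24 and 21), in titles 20 to 48 (5 and 21) and in the second series (3 and 15). Nrp2 lies above 0 and Plxna3 and Plxnb2 below 0 in each set, whereas Unc5a lies at 1.37 with all titles and at -1.08 in the second series. The sets overlap, and 1 sign in each set was part of the rule that picked out Nrp2, Plxna3 and Plxnb2.

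After saline, 5 EGFP+ cells stand beside 27 EGFP- cells, and each of the 5 was rich in microglia transcripts, against 12 of 27. The microglia gene C1qb had a median of 6337.5 CPM in the EGFP+ cells and 0.114 CPM in the EGFP- cells, and its part in the values below was not tested. Of 16 measured members 2 were at least 1 higher in EGFP+ cells (Plxdc1, Sema6b) and 6 at least 1 lower (Ntn5, Plxnb2, Plxna4, Unc5a, Plxdc2, Sema5a), where 17.1% of 7708 genes were higher and 37% lower. The medians were -0.39 over members and -0.46 over genes. Plxdc1, of the same family as Plxdc2, had 0, 21.9, 429, 0 and 0 CPM in the EGFP+ cells, against a highest value of 2.55 CPM in EGFP- cells (4 of 27 with a count). Sema6b had 63.7, 0, 326, 0 and 4.69 CPM, against a median of 0 and a highest value of 200.7 CPM. Both highest values are from the same cell, and without it no member was at least 1 higher. Gad2 was counted in 2 of 5 EGFP+ and 4 of 27 EGFP- cells, and without those cells Sema6b differed by -0.22 and Plxdc1 by 1.41. Ntn5 was at 0 in the 5 EGFP+ cells, which allows a share of up to 52.2%. Plxna4 had 69.1, 173, 109, 2.18 and 0 CPM, inside the range of EGFP- cells. The differences were 2.47 for Plxdc1, 2.23 for Sema6b, -2.52 for Ntn5, -2.29 for Plxnb2, -2.10 for Plxna4, -1.89 for Unc5a, -1.85 for Plxdc2 and -1.07 for Sema5a.

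The last comparison, KA against saline in EGFP+ cells, rests on the same 5 saline cells, so it is not independent of the one before. Of 17 measured members 7 were at least 1 higher after KA (Plxna2, Sema4f, Unc5a, Plxna4, Unc5c, Sema6d, Nrp1) and 2 at least 1 lower (Plxdc1, Sema6b), where 56.9% of 8709 genes were higher and 12.3% lower. The medians were 0.82 over members and 1.34 over genes, so the members stood below the shift of all genes. With that shift subtracted, 3 members were higher and 7 lower. Without the cells with a Gad2 count, which leaves 3 saline cells, 12 were higher and 0 lower. Plxna2 again had the highest difference of the measured members. Its 5 saline EGFP+ cells had 1.48, 0.371, 26.04, 0 and 0 CPM, beside the KA EGFP+ values above, and the difference was 3.15, with 0.85 in the second title series (3 KA cells). Unc5c had 8.70, 0.371, 21.6, 0.725 and 0 CPM in the saline EGFP+ cells, against a median of 10.9 and a highest value of 379 CPM in KA EGFP+ cells. Its difference was 1.46, but the 3 KA EGFP+ cells of the second series were at 0. Nrp1 had 50.5, 2.97, 97.3, 5.08 and 67.3 CPM in the saline EGFP+ cells, each above 0, against a median of 166 and a highest value of 509 CPM in KA EGFP+ cells (22 of 27). Its difference of 1.11 was smaller than the shift of all genes. The other differences were 2.62 for Sema4f, 2.51 for Unc5a, 2.11 for Plxna4, 1.38 for Sema6d, -1.82 for Plxdc1 and -1.45 for Sema6b.

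Across the 95 cells, correlations between members were mostly low. Many members were at 0 in most cells, and the same values for pairs of other genes were not computed. Over 276 pairs of the 24 members counted in at least 20 cells, Spearman correlations of CPM had a median of 0.13 and ranged from -0.20 to 0.45. The highest were Unc5c with Plxna2 (0.45), Sema4f with Dcc (0.43), Sema5a with Sema4f (0.43) and Sema6b with Plxna2 (0.42). Cells of this set share group, title series and library complexity, and each member's correlation with the number of genes per cell lay between 0.12 and 0.48, so these values are given as a description only.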

How the data were processed

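Each library was the cytosol of 1 patched cell, without molecular identifiers or strand. The tools named in the submitters' processing notes are STAR, featureCounts, kallisto and Trimmomatic, with build GRCm38, and their versions and roles are not given in the sources used here. The authors deposited whole-number read counts per gene symbol for the cells that passed quality control, and a normalized signal, in which each cell's deposited counts are multiplied by a constant (0.118 to 147.5). How those constants were computed is not stated. Of 115 labelled cells, 95 are in the deposited table and were used; the other 20 were left out. Spike-in rows (6 counts) were left out of totals.

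Counts were divided by the total of a cell over genes and scaled to 1000000 (CPM). Groups were compared by mean log2(CPM+1), with a pseudocount of 1 CPM, and a difference of at least 1 in either direction was counted. Genes needed an average of both group means of at least 1, also in smaller title sets. As the mouse of a cell is unknown, a group is 1 sample and no p-value was made from cells. Shares with intervals, receptor pairs and the number of members per cell used cells thinned to 1000000 counts. Other numbers of cells with a count used all counts unless thinning is named. Shares had exact Clopper-Pearson 95% intervals, and pooled CPM exact Poisson 95% intervals, which cover counting error only. No molecular identifiers were used, so reads are not independent molecules.

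Exon lengths and overlaps came from GENCODE M21, where 22634 of 22870 symbols and all 44 members matched, and promoters from RefSeq (GRCm38.p6). Full values are given for members counted in at least 50% of the cells of a group of 20 or more cells and for members with a difference of at least 1 and the same sign in every title set. The members and lists were chosen with earlier results of these data known. Alternatives were other scalings (edgeR 4.0.16 TMMwsp factors in R 4.3.3, the authors' signal, subtraction of the median of all genes), a pseudocount of 10 CPM, no level filter, pooled counts, thinning, title sets, cells also labelled as passed, leaving out cells rich in microglia transcripts (at least 0.1% of counts in 16 markers) and leaving out each saline EGFP+ cell. Leaving out the deepest cell, the cell with the most counts of a member, or the cells with a Gad2 count was added after seeing the data. The difference script was tested on simulated counts with counting error only, without other spread between cells, and on genes above a set level. That test does not cover genes at 0 in many cells. Python 3.11.15, numpy 2.4.6, pandas 2.3.3, scipy 1.17.1 and matplotlib 3.10.9 were used.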

Additional observations from a re-analysis of the deposited data

Results flagged for a closer look

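In the 5 saline EGFP+ cells, 5 of 15 members examined had 1 cell far from the others on the log2(CPM+1) scale, by the gap to the nearest cell as a share of the whole range (Dixon's 95% value for 5 cells is 0.71). Chance marks about 1 in 20 groups of continuous values, a rate that does not hold for values with many zeros such as these, so the number marked is not set against it. The share was 0.871 for Nrp2, where 1 cell had 67.8 CPM and the others 0 to 0.725 CPM. It was 0.883 for Plxdc2 (13.8 CPM in 1 cell, 0 to 0.371 in the others) and 0.725 for Plxna2 (26.04 CPM, 0 to 1.48 in the others). Plxnb2 and Sema4f each had a count in 1 of 5 cells, of 0.492 and 0.371 CPM, and with the other cells at 0 the share is 1 whatever the count. The high cell of Nrp2 and Plxdc2 is the same cell, and it also holds the Plxnb2 count. Group means of these members in saline EGFP+ cells rest on 1 cell each.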

How the results depend on the processing

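For single members, alternatives were computed only for those given full values, some of them chosen for keeping 1 sign in every title set. Dcc, which changed sign inside the second title series, is thus not among them. Of 387 alternative values of their differences of at least 1, 9 changed sign, and of 467 of smaller differences 98 did. The first of these rates is therefore partly set by that choice. In all, 838 moved by less than the SD over cells, counting those 98. The 9, whose cause was not tested beyond their construction, were Nrp1 for KA against saline in EGFP+ cells (-0.17 with TMMwsp scaling, -0.23 minus the median of all genes, -0.046 with the authors' signal) and Sema5a for EGFP+ against EGFP- cells after saline (0.96 from pooled counts). Without cells with a Gad2 count they were Sema6b for EGFP+ against EGFP- cells after saline (-0.22) and for KA against saline in EGFP+ cells (1.18). In the second title series they were Sema6d (-1.43) and Unc5c (-1.80) for KA against saline in EGFP+ cells. Unc5a (-1.08) for EGFP+ against EGFP- cells after KA also changed sign there. The TMMwsp factor of 1 saline EGFP+ cell was 0.030, and its part in the Nrp1 value with that scaling was not tested. For KA against saline in EGFP- cells the range over 12 or 13 alternatives was 1.51 to 4.43 for Plxna2, 1.10 to 3.31 for Unc5c, 0.78 to 2.95 for Plxna3, -3.61 to -1.09 for Ntn5, -2.20 to -0.76 for Plxdc2 and -2.35 to -0.19 for Nrp2. The median of all genes in that comparison was 0.44, and 0.54 with the authors' signal. Counts of members past 1 moved in 38 of 110 cases, and the cause was not tested. For KA against saline in EGFP- cells, members higher were 8 with no filter and 2 with a pseudocount of 10 CPM. Members lower were 7 minus the median, with pooled counts and in the second series, 5 with the authors' signal and 1 with the pseudocount. For EGFP+ against EGFP- cells after KA, members higher were 1 in the first series and minus the median, 0 with the pseudocount, 6 in the second series, and 4 with the authors' signal and in titles 20 to 48. Members lower were 5 in the first series, 4 minus the median, with the authors' signal and without cells rich in microglia transcripts, 7 with pooled counts, 0 with the pseudocount, 11 in the second series and 8 in titles 20 to 48. For KA against saline in EGFP+ cells, members higher were 3 minus the median and 12 with no filter. Members lower were 4 with TMMwsp scaling and with the authors' signal, 7 minus the median, 6 with pooled counts and in the second series, and 1 with the pseudocount. Without cells with a Gad2 count, members higher and lower were 0 and 6 for EGFP+ against EGFP- cells after KA, 1 and 9 after saline, and 12 and 0 for KA against saline in EGFP+ cells. Leaving out each saline EGFP+ cell in turn gave 0 to 3 members higher and 4 to 8 lower against EGFP- cells, with medians from -1.11 to -0.06, and 6 to 11 higher and 0 to 2 lower for KA against saline, with medians from 0.28 to 1.29. The cell with the highest Plxdc1 and Sema6b set the ends at 0, 11 and 0. No paired analysis was possible because no label ties a cell to a mouse and replicate numbers only name cells. Both the number of cells and the depth limit the saline EGFP+ group, which had the lowest median of counts (2697650): Nrp2 was counted in 20% of its cells after thinning and 80% before.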
